A study of Homo sapiens with 8 samples.

Results

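The genes described are 37 genes of the integrated stress response and the unfolded protein response, named by their known function, out of 57992 genes counted in RKO cells, an established human colon carcinoma line. RNAseq libraries came from 4 samples with control siRNA and 4 samples with siRNA against A20 (gene TNFAIP3), and all 8 were stimulated with recombinant human wnt3a at 50 ng/mL for 24 hours. No unstimulated sample was analysed here, and the labels name no agent that stresses the endoplasmic reticulum (ER) or removes amino acids, so the levels are those of wnt3a-stimulated cells in both groups. The labels number the samples 1 to 4 in each group without saying whether they were separate cultures, so p-values measure the spread between these samples, which may be technical. Of the 37 genes 36 passed the filter on low counts, which left 13412 genes for testing.

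The unfolded protein response starts at sensors in the ER membrane. EIF2AK3 (PERK) phosphorylates the translation factor eIF2alpha, ERN1 (IRE1) splices the mRNA of the transcription factor XBP1, and ATF6 is cut to release a transcription factor of its own. Phosphorylated eIF2alpha slows protein synthesis in general but lets the mRNA of ATF4 be translated, and ATF4 then drives genes for amino acid synthesis, amino acid uptake and tRNA charging. Other kinases, such as the amino acid sensor GCN2, reach ATF4 by the same phosphorylation, and this wider route is called the integrated stress response. ATF4, XBP1 and ATF6 are controlled largely by translation, splicing and cleavage, which counts of reads per gene do not measure.

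The knockdown was visible but partial in the counts. TNFAIP3 (chr6:137867214-137883314 on GRCh38) was at 5.47 ± 0.388 CPM with control siRNA and 3.33 ± 0.215 CPM with A20 siRNA (SD, n = 4), where CPM are counts relative to library size after edgeR's TMM scaling. The difference was -0.71 on the log2 scale (SE 0.0953) with an adjusted p of 0.00258 by the quasi-likelihood test of edgeR, adjusted over all tested genes by the Benjamini-Hochberg method. Total counts were between 21226451 and 34194273 per library, where 3 counts are worth 0.0875 to 0.141 CPM. This limit and all intervals from single counts cover counting error only. Of 8 epithelial markers 4 were tested, summing to 138.1 to 151.6 CPM over the 8 libraries, and CDH1, KRT19 and KRT20 were at 0 in all of them. Fibroblast, immune and endothelial marker lists each summed to at most 1.44 CPM in any library.

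Promoter sequences are shown first for the genes whose window holds a known stress element, since these elements are how the pathway's factors are known to find their targets. The windows are those of RefSeq on GRCh38.p14, from 250 bases before to 50 bases after a gene's start, for 27305 genes. Positions before the start refer to this RefSeq start. The gene spans given elsewhere are those of GENCODE, which can begin further upstream. The stretches of ASNS, CEBPG, CHAC1, CRELD2, HSP90B1 and PDIA6 thus lie inside the GENCODE span of their gene. The windows covered 34 of the 37 genes, and none was given for PSPH, SHMT2 and SLC7A11. Matches were sought on both strands with no mismatch. The ER stress element I is CCAAT and CCACG with 9 bases between them, the arrangement read by ATF6 together with the factor NF-Y. It was found in 6 of the 34 genes (17.6%) against 25 of all 27305 (0.0916%). Capitals mark the match in these stretches, which are written 5′ to 3′ on the strand of the gene.
HSPA5 (minus strand, chr9:125241373-125241427): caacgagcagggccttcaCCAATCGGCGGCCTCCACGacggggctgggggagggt
XBP1 (minus strand, chr22:28800585-28800639): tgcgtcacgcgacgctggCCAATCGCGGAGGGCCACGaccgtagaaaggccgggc
PDIA6 (minus strand, chr2:10812835-10812889): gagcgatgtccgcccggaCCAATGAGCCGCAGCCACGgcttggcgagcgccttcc
HSP90B1 (plus strand, chr12:103930198-103930252): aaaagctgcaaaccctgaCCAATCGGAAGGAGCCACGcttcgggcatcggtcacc
CALR (plus strand, chr19:12938366-12938420): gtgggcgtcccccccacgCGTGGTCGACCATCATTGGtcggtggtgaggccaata
CRELD2 (plus strand, chr22:49918536-49918590): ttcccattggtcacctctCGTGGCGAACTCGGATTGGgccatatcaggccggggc

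The match in HSPA5 lay 66 to 48 bases before the start, that in XBP1 52 to 34 bases before it and that in PDIA6 86 to 68 bases before it. In CALR and CRELD2 the element read on the opposite strand, and HSP90B1 held a further copy on that strand 89 to 71 bases before its start. The ER stress element II, ATTGG and CCACG with 1 base between them, was in HERPUD1 and SDF2L1, 2 of 34 genes (5.88%) against 0.0696% of all genes with a window. The core of the amino acid response element, TGATGNAA, which ATF4 binds with a C/EBP partner, was in 5 of 34 genes (14.7%) against 4.46% of all genes with a window. These were ASNS, CEBPG, CHAC1, HERPUD1 and SLC3A2, and 4 are shown because the match lay before the RefSeq start.
ASNS (minus strand, chr7:97872451-97872494): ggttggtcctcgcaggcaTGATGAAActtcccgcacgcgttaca
CEBPG (plus strand, chr19:33374053-33374096): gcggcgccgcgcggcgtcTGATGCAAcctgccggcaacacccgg
CHAC1 (plus strand, chr15:40953244-40953287): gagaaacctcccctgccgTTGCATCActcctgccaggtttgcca
HERPUD1 (plus strand, chr16:56931948-56931991): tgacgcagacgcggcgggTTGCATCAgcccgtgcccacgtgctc

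The cAMP response element TGACGTCA was in PPP1R15A alone of the 34 genes (2.94%) against 2.25% of all genes with a window, and the element TGACGTGG was in 0 of 34 against 0.927%. A match is a description of the letters, and the absence of a match says only that the letters are not in this window. The genes were chosen by their known function in these responses, so the shares of matches among them are no test of enrichment.

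The highest levels among these transcripts were those of ER chaperones. Levels between genes are compared per kilobase of exonic length, the union of all exons annotated for the gene. This length can exceed that of the transcripts in these cells, so the order depends in part on the annotation. For example, HSP90B1 had 1264 CPM over 13092 bases and PDIA4 535.5 CPM over 3298 bases (control means). The lengths of ERN1 and EIF2AK3 were 19153 and 20691 bases, at 22.4 and 17.4 CPM. CALR, the lectin chaperone of glycoproteins, was at 519.9 CPM per kb with control siRNA, HSPA5 (BiP), the central Hsp70 of the ER, at 237.5 and PDIA4, a disulfide isomerase, at 162.4. At the other end were the sensors ERN1 at 1.17 and EIF2AK3 at 0.843 CPM per kb, and CHAC1, which degrades glutathione, at 0.547. ATF4 mRNA itself was at 64.1 CPM per kb, close to PSAT1 of the serine pathway at 64.2. The order of the 36 genes was nearly the same with A20 siRNA, with 8 genes at another rank and a rank correlation of 0.999 across genes, which are not independent. The genes that changed rank were the neighbours PSAT1 and ATF4, SDF2L1 and DNAJC3, ASNS and CEBPG, and TRIB3 and SEL1L, whose levels per kb lay close together.

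**Figure D1:**
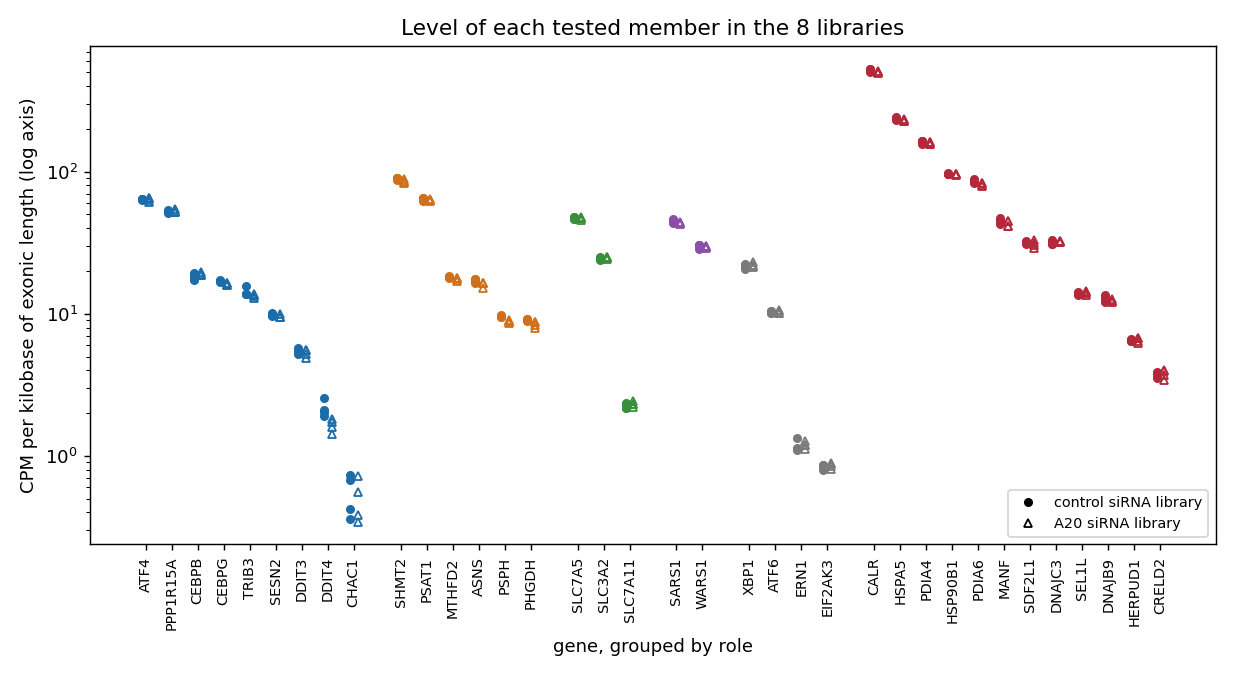
Level of each of the 36 tested genes in each library, in CPM per kilobase of exonic length on a log axis, with genes grouped by role and ordered by their control mean. Filled circles are the 4 control siRNA libraries and open triangles the 4 A20 siRNA libraries, and the range runs from CALR at 519.9 to CHAC1 at 0.547 CPM per kb (control means).

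With A20 siRNA none of the 36 tested genes passed an adjusted p of 0.05 in edgeR's quasi-likelihood test, against 167 of all 13412 genes (1.25%), of which 82 were lower (0.611%). Limma-voom also called 0 of the 36, and DESeq2 0 of the 33 to which it gave an adjusted p, with CHAC1, DDIT3 and DDIT4 left without one. At an unadjusted p under 0.05 there were 11 genes (30.6%), all lower with A20 siRNA, against 16.2% of all genes in either direction. Of all 13412 genes 989 were lower and 1181 higher at that p. For the 36 genes DESeq2 and limma-voom gave 10 and 11. The 11 were CEBPG, TRIB3, DDIT4, PHGDH, PSPH, SHMT2, ASNS, SARS1, HSPA5, PDIA6 and CALR. In bulk RNA such a difference cannot be told apart from a change in the share of cells that express a gene.

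The differences were small. The log2 fold changes, A20 siRNA minus control siRNA, ran from -0.40 for DDIT4 to 0.06 for CEBPB, with a median of -0.03 against 0.0028 over all genes, and 23 were below 0 and 13 above (63.9% below, against 48.4% of all genes). For 33 of the 36 genes the whole 95% interval lay within 0.2 of 0 on the log2 scale, a fold of 1.15, as it did for 61.9% of all tested genes. The exceptions were CHAC1, DDIT4 and PSPH. The median half-width of the intervals was 0.0605 for the 36 genes and 0.093 over all tested genes. Shares of genes within 0.2 of 0 or under an unadjusted p of 0.05 depend on this width as well as on the differences. Leaving out control replicate 1 brought 7 of the genes past an adjusted p of 0.05, all lower (SARS1, PHGDH, PDIA6, HSPA5, DDIT4, SHMT2 and CALR), while the calls over all genes went from 82 lower and 85 higher to 430 and 567. Leaving out any other library brought 0 of the genes past that threshold.

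**Figure D2:**
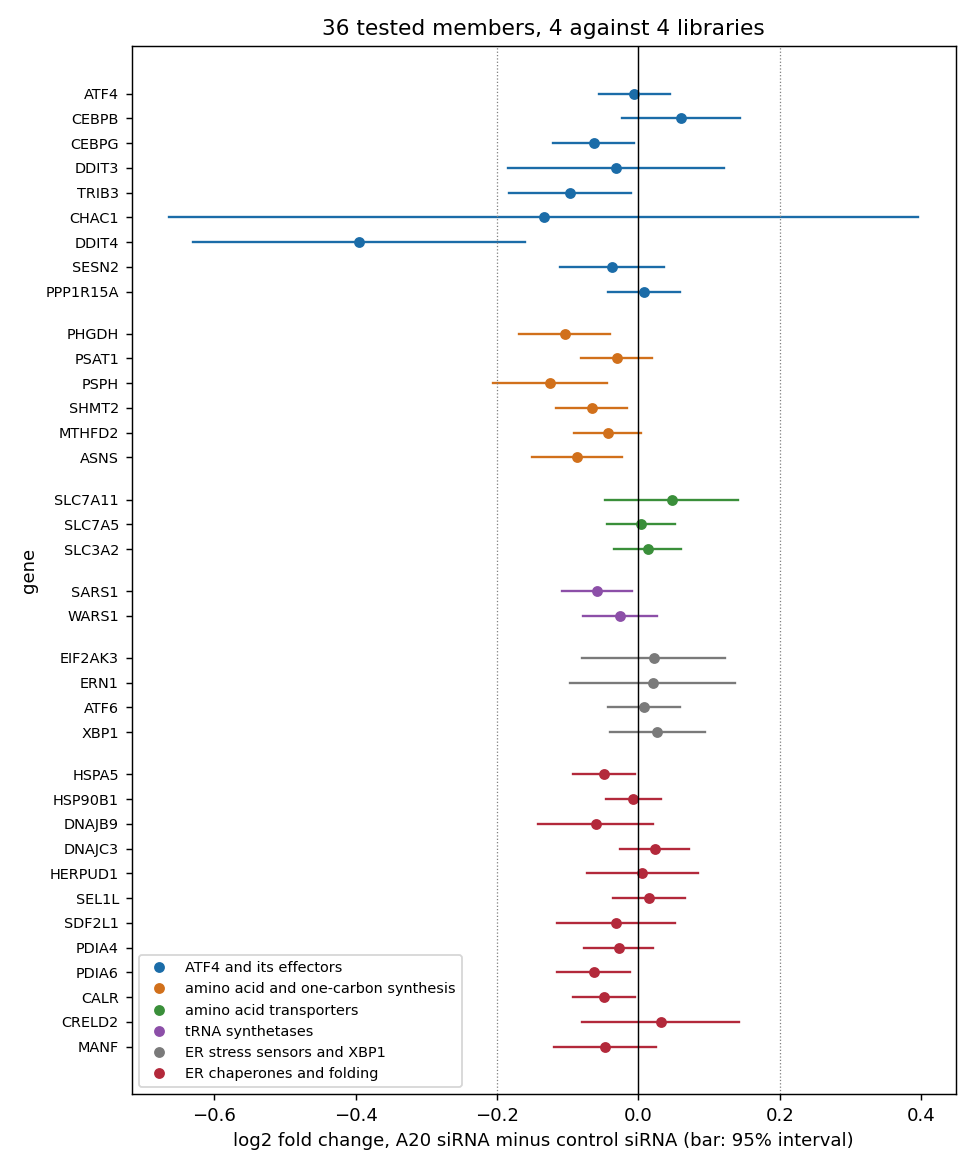
Log2 fold change of each of the 36 tested genes, A20 siRNA minus control siRNA (x axis), with its 95% interval from edgeR's quasi-likelihood fit as a bar and genes grouped by role. Dotted lines mark 0.2 on either side of 0, and the points run from -0.40 for DDIT4 to 0.06 for CEBPB.

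The 4 values with A20 siRNA lay entirely below the 4 control values for 6 of the 36 genes, where 3.9% of all tested genes did so, and entirely above them for 0 genes, where 3.71% did. The 6 were DDIT4, TRIB3, CEBPG, PHGDH, PSPH and ASNS. They belong to ATF4's effectors and to amino acid synthesis. Whether these groups differ from the others was not tested.

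DDIT4 (REDD1, chr10:72273919-72276036), an inhibitor of mTORC1 induced by several stresses, differed most. Its level was 4.32, 5.36, 4.48 and 4.02 CPM in control replicates 1 to 4 and 3.00, 3.69, 3.85 and 3.39 CPM in A20 siRNA replicates 1 to 4. All A20 siRNA libraries were below all control libraries, with the lowest control and the highest A20 siRNA value close to each other. The log2 fold change was -0.40 (SE 0.112, 95% interval -0.63 to -0.16) with an adjusted p of 0.0794 by edgeR's quasi-likelihood test, so it did not pass the threshold. It passed with no filter on low counts (adjusted p = 0.0165) and without control replicate 1 (adjusted p = 0.0380). DDIT4 rested on 72 to 137 counts per library. With each library left out its log2 fold change was -0.45 to -0.31. Groups that do not overlap leave little room for another sign, so the kept sign adds no support.

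TRIB3 (chr20:362835-397559), a pseudokinase that ATF4 induces and that restrains ATF4 signalling, was at 45.7, 51.9, 45.5 and 45.2 CPM in the controls and at 45.1, 44.4, 43.6 and 42.5 CPM with A20 siRNA. The groups did not overlap, but control replicate 2 stood above the other 7 libraries and the remaining controls came close to A20 siRNA replicate 1. The log2 fold change was -0.10 (SE 0.0411, adjusted p = 0.249, edgeR), and it ranged from -0.12 to -0.05 when each library was left out.

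CEBPG (chr19:33373685-33382686), a bZIP partner of ATF4 whose promoter stretch is shown above, was at 68.6, 68.7, 69.9 and 67.7 CPM in the controls. With A20 siRNA it was at 66.4, 67.2, 64.6 and 64.7 CPM, all below the controls by a narrow gap. Its log2 fold change was -0.06 (SE 0.0273, adjusted p = 0.259, edgeR).

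The regulators of this arm were close between the groups. ATF4 (chr22:39519695-39522683) was at 167.0, 169.0, 165.4 and 168.4 CPM in the controls and at 170.5, 170.7, 165.0 and 160.2 CPM with A20 siRNA. The A20 siRNA values lay on both sides of the controls, and the log2 fold change was -0.01 with a 95% interval of -0.06 to 0.05 (adjusted p = 0.939, edgeR). DDIT3 (CHOP, chr12:57516588-57521737), the ATF4-induced factor linked to cell death under lasting ER stress, was at 7.12, 6.85, 7.56 and 7.02 CPM in the controls and at 7.29, 7.23, 6.84 and 6.39 CPM with A20 siRNA. These groups overlapped as well, and the log2 fold change was -0.03 (95% interval -0.18 to 0.12, adjusted p = 0.888, edgeR). DDIT3 shares exonic sequence with an unnamed gene model on its own strand and with MARS1 and MBD6 on the other. The strand setting of the counting was not given in the sources used here, so its reads are less certain. Exons of CEBPB, SHMT2, MTHFD2, SLC7A11, SLC7A5, WARS1, EIF2AK3, ERN1, HSP90B1, PDIA6, CALR and CRELD2 also overlap a gene model on the other strand, with the same limit.

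The remaining genes of this group overlapped between the groups. CEBPB, another bZIP partner, was the highest in fold of all 36 genes (log2 fold change 0.06, 95% interval -0.02 to 0.14). SESN2, which restrains mTORC1 when leucine is short, was at 34.1 ± 0.703 and 33.2 ± 0.704 CPM (SD, n = 4). PPP1R15A (GADD34), which recruits the phosphatase that removes the phosphate from eIF2alpha, was at 180.8 ± 4.51 and 181.8 ± 3.49 CPM (SD, n = 4). CHAC1 was too shallow for a narrow estimate, with 15 to 45 counts per library and an interval of -0.66 to 0.40 on the log2 scale. Of the 9 genes in the group 7 were below 0, with a median log2 fold change of -0.04.

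**Figure D3:**
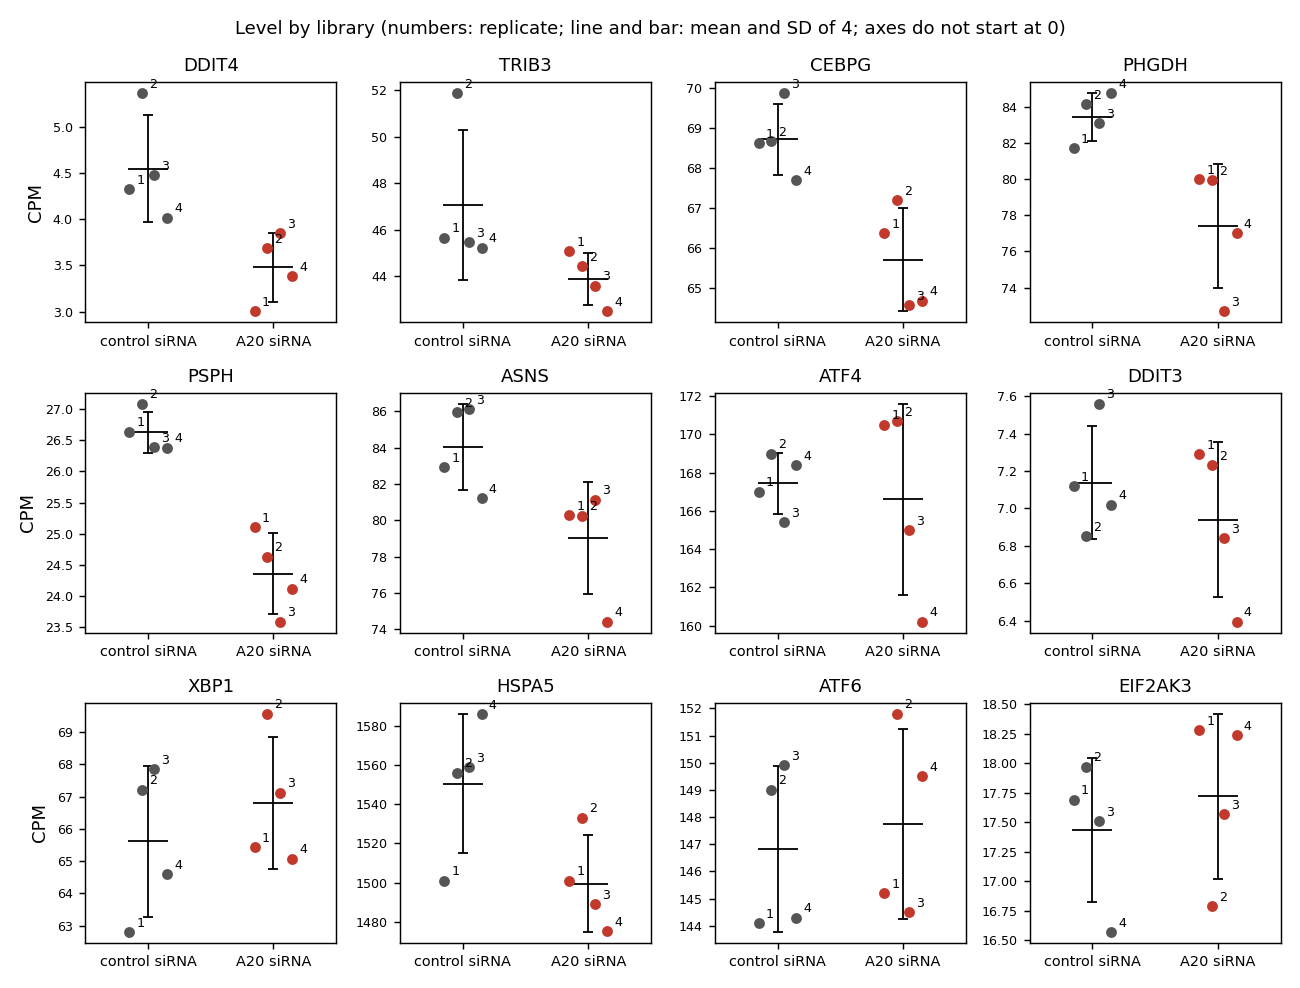
Level in CPM (linear axes that do not start at 0) of 12 genes in each library, with the replicate number beside each point and the mean and SD of 4 libraries as a line and bar. In DDIT4, TRIB3, CEBPG, PHGDH, PSPH and ASNS all A20 siRNA points lie below all control points, and in ATF4, DDIT3, XBP1, HSPA5, ATF6 and EIF2AK3 the groups overlap.

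The genes of serine, glycine, one-carbon and asparagine synthesis were the group with the lowest median. All 6 had a log2 fold change below 0, where 48.4% of all genes did. The values ran from -0.12 for PSPH to -0.03 for PSAT1, with a median of -0.08. An unadjusted p under 0.05 was given to 4 of the 6 (66.7%), against 16.2% of all genes in either direction (989 of 13412 lower and 1181 higher). None passed the adjusted threshold. Their summed level was 955.0 ± 13.99 CPM with control siRNA and 913.9 ± 15.77 CPM with A20 siRNA (SD, n = 4), and the ranges of 935.1 to 966.3 and 898.8 to 936.0 CPM met at their ends.

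PHGDH (chr1:119648411-119744218), the first enzyme of serine synthesis from glucose carbon, was at 81.7, 84.1, 83.1 and 84.7 CPM in the controls and at 79.98, 79.95, 72.7 and 77.0 CPM with A20 siRNA. The groups did not overlap, and A20 siRNA replicate 3 was the lowest library. The log2 fold change was -0.10 (SE 0.0307, 95% interval -0.17 to -0.04, adjusted p = 0.0921, edgeR). PHGDH passed the threshold with no filter on low counts (adjusted p = 0.0247) and with the correction for exonic length and GC content described further on (adjusted p = 0.0211).

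PSPH (chr7:56011051-56051604), the last enzyme of the same route, was at 26.6, 27.1, 26.4 and 26.4 CPM in the controls and at 25.1, 24.6, 23.6 and 24.1 CPM with A20 siRNA. The controls lay within a narrow range and every A20 siRNA library was below it. The log2 fold change was -0.12 (SE 0.0388, 95% interval -0.21 to -0.04, adjusted p = 0.109, edgeR). PSAT1, the enzyme between PHGDH and PSPH, overlapped between the groups at 141.6 ± 3.50 and 138.5 ± 1.82 CPM (SD, n = 4). The annotation holds 4 named copies of PSAT1 and 1 of PSPH, and reads shared with a near-identical copy are not counted as unique. It also holds 4 of ATF4, 7 of MTHFD2, 2 of SLC7A5 and 1 each of WARS1, XBP1 and HSPA5.

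ASNS (chr7:97851677-97872542), which makes asparagine and carries the amino acid response element shown above, was at 82.9, 85.9, 86.1 and 81.2 CPM in the controls. With A20 siRNA it was at 80.3, 80.2, 81.1 and 74.4 CPM, with replicate 4 well below the others and replicate 3 just under the lowest control. For ASNS the log2 fold change was -0.09 (SE 0.0306, adjusted p = 0.163, edgeR). ASNS also has 4 named copies and a gene model that overlaps it on the same strand. SHMT2 and MTHFD2, the mitochondrial enzymes that move one-carbon units from serine to folate, were at 412.0 ± 8.19 against 393.6 ± 10.8 CPM and at 207.3 ± 2.51 against 201.0 ± 3.95 CPM (SD, n = 4), and both overlapped between the groups.

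The amino acid transporters were level. SLC7A11, the cystine and glutamate exchanger, SLC7A5, the carrier of large neutral amino acids, and SLC3A2, the heavy chain that both need at the cell surface, had log2 fold changes of 0.05, 0.004 and 0.01. Their intervals ran from -0.05 to 0.14 at the widest, and their summed level was 403.7 ± 5.64 and 406.2 ± 6.64 CPM (SD, n = 4). Of the tRNA synthetases, which charge tRNAs with their amino acid, SARS1 was at 173.9 ± 4.38 and 166.9 ± 2.55 CPM (log2 fold change -0.06, adjusted p = 0.230, edgeR, n = 4) and WARS1 at 190.8 ± 6.32 and 187.4 ± 2.49 CPM (SD, n = 4). Both overlapped between the groups.

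VLDLR-AS1 (chr9:2421597-2622457), the noncoding gene antisense to VLDLR, had 0 counts in all 8 libraries. At these depths that allows up to 3 counts, or 0.0875 to 0.141 CPM, in a library. VLDLR itself had at most 2 counts.

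The sensors and XBP1 had log2 fold changes just above 0 in all 4 genes, with a median of 0.02, and no interval left out 0. ATF6 (chr1:161766298-161977574) was at 144.1, 149.0, 149.9 and 144.3 CPM in the controls and at 145.2, 151.8, 144.5 and 149.5 CPM with A20 siRNA (log2 fold change 0.01, 95% interval -0.04 to 0.06). ERN1 (chr17:64039080-64130819) was at 21.8, 21.02, 25.4 and 21.6 CPM and at 22.7, 21.5, 24.2 and 22.7 CPM (log2 fold change 0.02, 95% interval -0.10 to 0.14). In both genes the groups covered nearly the same range.

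EIF2AK3 (chr2:88556741-88691518) was at 17.7, 17.97, 17.5 and 16.6 CPM in the controls and at 18.3, 16.8, 17.6 and 18.2 CPM with A20 siRNA (log2 fold change 0.02, 95% interval -0.08 to 0.12). XBP1 (chr22:28794555-28800597) was at 62.8, 67.2, 67.9 and 64.6 CPM in the controls and at 65.4, 69.6, 67.1 and 65.1 CPM with A20 siRNA (log2 fold change 0.03, 95% interval -0.04 to 0.09). Both overlapped throughout. The counts are per gene, so spliced and unspliced XBP1 were not separated.

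Among the 12 chaperones and folding or degradation factors 8 were below 0 and 4 above, with a median log2 fold change of -0.03, and all 12 intervals lay within 0.2 of 0. HSPA5 (chr9:125234853-125241382) was at 1501, 1556, 1559 and 1586 CPM in the controls and at 1501, 1533, 1489 and 1475 CPM with A20 siRNA. Control replicate 1 fell among the A20 siRNA libraries. The log2 fold change was -0.05 (SE 0.0211, 95% interval -0.09 to -0.0042, adjusted p = 0.264, edgeR), and without control replicate 1 it was -0.07 with an adjusted p of 0.0295.

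Of the other genes with an ER stress element, 2 had small differences on the lower side and the rest had intervals that spanned 0. CALR and PDIA6 had log2 fold changes of -0.05 and -0.06 with unadjusted p values under 0.05. HSP90B1 (GRP94), the Hsp90 of the ER, was at -0.01, and CRELD2, a secreted protein induced by ER stress, was at 0.03. The genes with the element II, HERPUD1, which serves ER-associated degradation, and SDF2L1, which works with BiP, were at 0.01 and -0.03. None of these passed the adjusted threshold.

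The others were the co-chaperones DNAJB9 and DNAJC3, the degradation adaptor SEL1L, the disulfide isomerase PDIA4 and MANF, a secreted ER protein. Their log2 fold changes were -0.06, 0.02, 0.02, -0.03 and -0.05, and each overlapped between the groups. The summed level of the 12 genes was 5681 ± 85.3 CPM with control siRNA and 5549 ± 58.0 CPM with A20 siRNA (SD, n = 4), with overlapping ranges of 5567 to 5771 and 5486 to 5623 CPM.

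Libraries also differed within each group. A20 siRNA replicate 4 was the lowest of the 8 libraries for 14 of the 36 genes, and control replicate 3 was the highest for 9 and the lowest for 0. A library's deviation from the mean of all 8 correlated with exonic length across all tested genes, with Spearman's rho of 0.079, -0.164, -0.111 and -0.2 in control replicates 1 to 4 and 0.069, -0.082, 0.144 and 0.178 in A20 siRNA replicates 1 to 4. Longer genes were thus read relatively more in A20 siRNA replicates 3 and 4 and less in control replicates 2, 3 and 4. Across the 36 genes the log2 fold change correlated with length by a rho of 0.361, and across all genes by 0.18. The median of the exonic lengths was 16710 bases for the sensors and XBP1 and 2613 for the ATF4 effectors, against 4982 over all genes. It was 4744 for the synthesis genes, the group with the lowest median fold change.

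**Figure D4:**
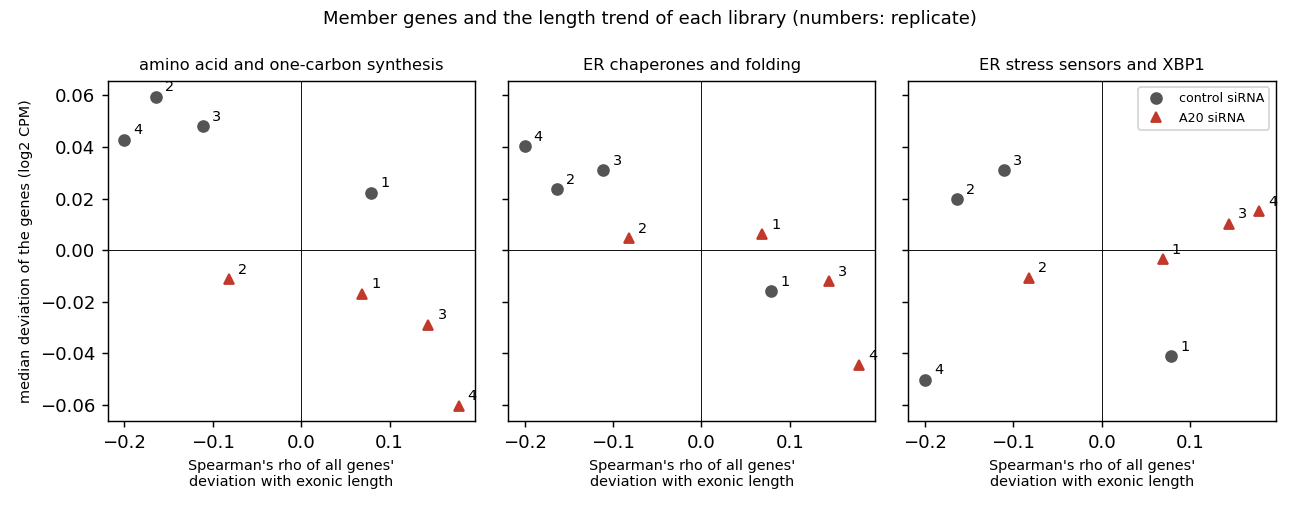
Each library's trend with gene length (x axis, Spearman's rho of its deviation with exonic length over all tested genes) against the median deviation in log2 CPM of 3 groups of genes (y axis), with replicate numbers beside circles for control siRNA and triangles for A20 siRNA. A20 siRNA replicate 4, at 0.178, is lowest for the synthesis and chaperone genes, and control replicate 4, at -0.2, is lowest for the sensors and XBP1.

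A loess correction of each library for exonic length and GC content was set beside the uncorrected values. It called PHGDH alone of the 36 genes, put 30 genes below 0 and 6 above, and turned ATF6, EIF2AK3, ERN1, HERPUD1, SEL1L, SLC3A2 and SLC7A5 from above 0 to below it. The median log2 fold change over all genes also moved, from 0.0028 to -0.014, so part of this count is a shift of all genes. It also moved the calls over all genes from 82 lower and 85 higher (49.1% lower) to 236 lower and 97 higher (70.9% lower). After these counts had been seen, the same correction was run with its offsets set to a median of 0 in each library, so that the scaling stayed that of TMM. This centred form gave 126 lower and 112 higher (52.9% lower), called PHGDH alone of the 36 genes (adjusted p = 0.0440, edgeR) and put 24 genes below 0 and 12 above. It turned ATF4 and SDF2L1 above 0 and ATF6, EIF2AK3 and ERN1 below it. HERPUD1, SEL1L, SLC3A2 and SLC7A5 stayed above 0 in this form, where the median over all genes was 0.0021. The direction of genes near 0, the sensors above all, thus depended on this choice. Of the 23 genes below 0 without correction, 23 stayed below it in the uncentred form and 21 in the centred form. DDIT4, TRIB3, CEBPG, PHGDH, PSPH and ASNS were among those that stayed. No gene of the 36 moved by more than 0.059 and these genes started further from 0, so their kept sign adds no support. The part of length or GC content in the differences was not tested further.

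**Figure D5:**
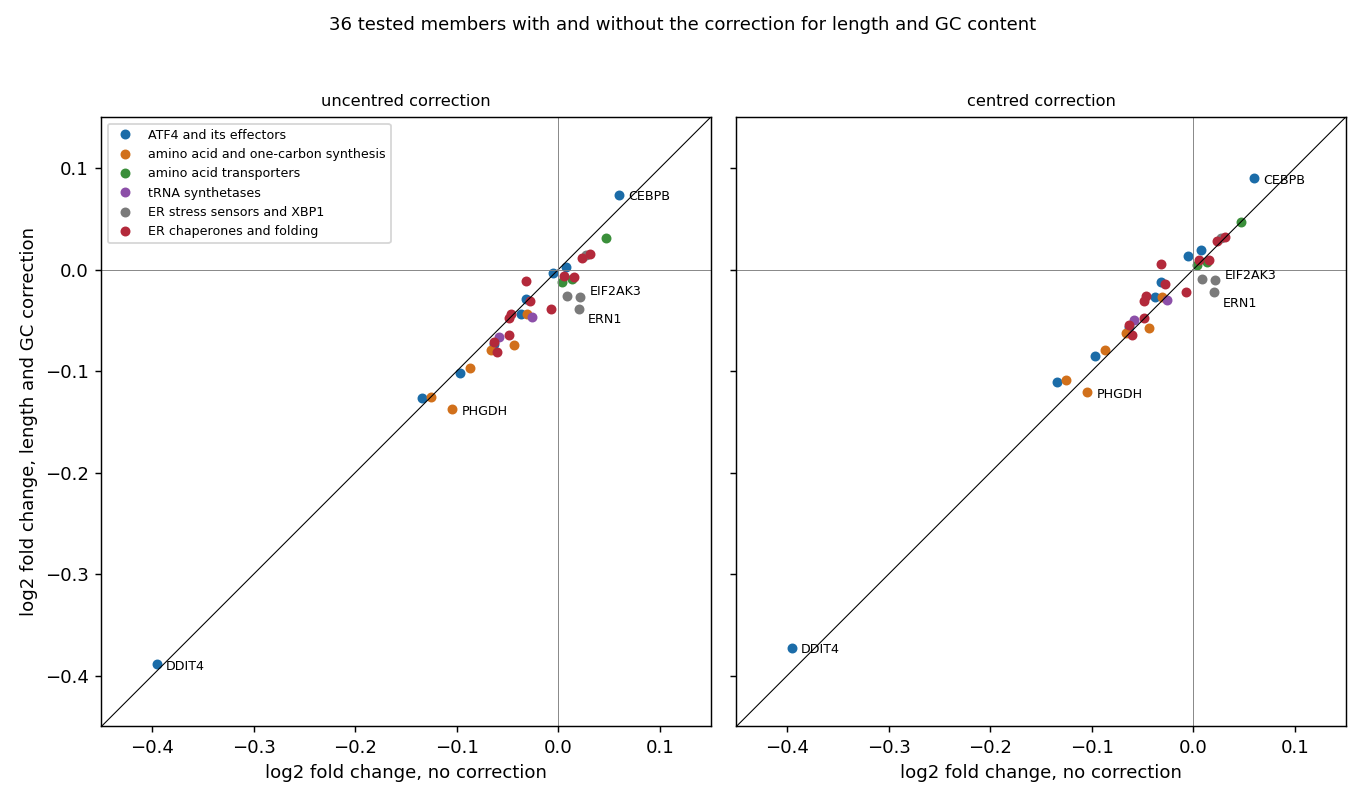
Log2 fold change of the 36 tested genes without correction (x axis) against that with the correction for exonic length and GC content (y axis), uncentred on the left and centred on the right, with the line of equality and colours for the role. Genes near 0 cross the horizontal line, with 30 genes below 0 on the left and 24 on the right, while DDIT4 stays apart from the rest in both.

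Other genes of the pathway and related stress genes were taken from a list of 109, of which 103 were tested. The list also held 7 mitochondrial chaperones and proteases and 8 cytosolic heat shock proteins, which are not ER genes. P4HB, an abundant ER disulfide isomerase, was the 1 gene of the 103 to pass the adjusted threshold, against 1.25% of all genes. That count was 2 with DESeq2, 5 with no filter on low counts, 4 with the uncentred and 2 with the centred correction. It was 0 to 8 when each library was left out, with the 8 coming without control replicate 1. The calls over all genes moved in these settings too. They were 122 lower and 83 higher with DESeq2, 310 and 314 with no filter, 236 and 97 uncentred, and 126 and 112 centred. Without control replicate 1 they were 430 and 567. P4HB was at 753.3, 783.4, 756.9 and 792.6 CPM in the controls and at 716.8, 709.8, 705.2 and 720.3 CPM with A20 siRNA, without overlap. Its level fell with a log2 fold change of -0.11 (SE 0.0218, adjusted p = 0.0234, edgeR), but without control replicate 2, control replicate 4 or A20 siRNA replicate 3 the adjusted p was 0.0858, 0.102 and 0.101.

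Most of the rest of the list was also below 0, without passing the threshold. Of the 103 tested genes 74 were below 0 and 29 above (71.8% below, against 48.4% of all genes), with a median log2 fold change of -0.02. At an unadjusted p under 0.05 there were 17 below 0 and 5 above (21.4% against 16.2% of all genes), and 9 did not overlap on the lower side (8.74% against 3.9%) and 2 on the higher (1.94% against 3.71%). Among the other ER folding and translocation genes 16 of 18 were below 0, and among the other cytosolic tRNA synthetases 15 of 18. The eIF2 kinases, eIF2 and eIF2B subunits were divided into 7 below 0 and 5 above, and ATF6 processing factors and kin into 2 below and 4 above.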

How the data were processed

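The authors trimmed reads with Trimmomatic, mapped them to GRCh38.p7 with STAR and deposited raw counts of uniquely mapped reads per gene. Tool versions, the GENCODE release and the strand setting are not given in the sources used here. Libraries were made with a poly(A) mRNA kit. Symbols, coordinates and exonic lengths came from GENCODE release 44, matched by Ensembl identifier without version. Counts were tested with edgeR 4.0.16 in R 4.3.3 (filterByExpr, minimum count 10, TMM, quasi-likelihood test, Benjamini-Hochberg adjustment over all 13412 tested genes, threshold 0.05), without covariates. Groups came from the siRNA labels. Alternatives were RLE scaling, no or a stricter filter, DESeq2 1.42.0, limma-voom (limma 3.58.1), the replicate number as a block, a loess correction for length and GC content (span 0.5), and each library left out. Centring that correction was added after its uncentred counts of calls had been seen. Genes given by library are those with an adjusted p under 0.05 or groups that did not overlap, plus the main regulators, HSPA5 and VLDLR-AS1. The genes and lists were chosen with earlier results of these data known.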

Additional observations from a re-analysis of the deposited data

Results flagged for a closer look

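In 6 of the 72 groups of 4 libraries (36 genes, both siRNA groups) 1 library stood apart from the other 3 by more than the share of the group's range that Dixon's test allows at 95%, where chance gives about 3.6 such groups. In the controls these were TRIB3 in replicate 2 (51.87 CPM, the others 45.24 to 45.67), SHMT2 in replicate 1 (399.9 CPM, the others 414.8 to 417.5), WARS1 in replicate 1 (181.4 CPM, the others 192.7 to 194.6) and PDIA4 in replicate 1 (518 CPM, the others 540.5 to 542). With A20 siRNA they were SESN2 in replicate 3 (34.28 CPM, the others 32.82 to 32.94) and ASNS in replicate 4 (74.42 CPM, the others 80.24 to 81.13). Control replicate 1 was thus the low library in 3 of the 6, and it is the control library whose deviation had a positive correlation with exonic length (rho 0.079). The cause was not tested.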

How the results depend on the processing

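Without any alternative 82 genes were lower and 85 higher with A20 siRNA, and 0 of the stress genes were called. With no filter on low counts there were 310 lower and 314 higher genes, and 2 stress genes lower (PHGDH and DDIT4). The length and GC correction gave 236 lower and 97 higher genes, and its centred form, added after those counts had been seen, 126 lower and 112 higher, each with 1 stress gene lower (PHGDH). Leaving out each library gave 6 to 430 lower and 6 to 567 higher genes and 0 to 7 stress genes lower. The 7 came without control replicate 1, and leaving out any other library gave 0. No alternative called a stress gene higher. RLE scaling (95 lower, 87 higher), the stricter filter (76, 77), DESeq2 (122, 83, with no adjusted p for CHAC1, DDIT3 and DDIT4) and limma-voom (84, 81) called 0 stress genes. TNFAIP3 had an adjusted p under 0.05 and was lower in every alternative but DESeq2, which gave it the same direction and no adjusted p.

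The labels do not say that equal numbers mark a shared batch, and the libraries were not treated as paired. Deviations of same-numbered libraries correlated by 0.0838, 0.0336, 0.0354 and -0.0098, and 4 of 8 libraries correlated best with their own number. Each library had 4 candidates in the other group, so some such matches come by chance, and the count does not settle whether a batch was shared. With the replicate block 212 genes were lower and 262 higher, with 1 stress gene lower (DDIT4, adjusted p = 0.0357, edgeR). The block with the length and GC correction gave 410 lower and 197 higher genes and 4 stress genes lower (PHGDH, DDIT4, SHMT2 and ASNS). The block with the centred correction gave 228 lower and 243 higher, with 1 stress gene lower (PHGDH). The cause of these differences was not tested. Depth limited CHAC1 and DDIT4 most, at 15 to 45 and 72 to 137 counts per library.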
